A study of Mus musculus with 12 samples.

Results

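Solute carriers are membrane proteins that move nutrients, ions, metabolites and metals across the plasma membrane or the membranes of organelles. They are numbered by family, and the family number largely follows the substrate, such as amino acids (Slc7, Slc38), monocarboxylates (Slc16), zinc (Slc30 out of the cytosol, Slc39 into it) or mitochondrial metabolites (Slc25). In the ovary such carriers feed the oocyte and its granulosa cells, supply steroid-making cells and clear prostaglandins. The genes described here were chosen by name, as every gene with an Slc or Slco family symbol except Slc2a1, and the rule uses no difference between the groups. There were 231 such genes among the 10949 genes measured, represented by 309 of 16376 probe sets. For the 61 genes with more than 1 probe set, the one with the highest mean over all arrays was used. By name 228 of the 231 are carriers, and the other 3 are the opposite-strand genes Slc6a19os and Slc7a6os and the scaffold gene Slc9a3r2. For short, counts of carriers below are over all 231 genes and include these 3.

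Levels were measured on 1-colour arrays in 12 mouse ovary samples collected in diestrus from mice aged 23 weeks. The 6 control samples carried Pgrcre/+, an allele with Cre recombinase at the locus of the progesterone receptor gene Pgr, and had no tumor. The other 6 carried Pgrcre/+ together with PgrBLsL/+, and their ovaries were labelled as tumor stage I in 3 and stage II in 3. All 12 therefore shared the Pgrcre/+ allele, and every ovary with the PgrBLsL allele had a tumor stage, so that allele and tumor cannot be told apart against control. The series title places the study in constitutive expression of progesterone receptor isoforms and ovarian neoplasia. The labels call the samples biological replicates and do not say whether ovaries were pooled.

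Several facts of the arrays stand beside all values that follow. Control arrays read from 3.74 to 4.60 for Pgr on the log2 scale, stage I arrays from 9.05 to 9.28, and stage II arrays from 9.78 to 10.09. Control replicates 1 and 4 stood apart from the other controls on the second principal component, at 17.4 and 19.4 against values from -7.4 to -0.1. On the first component stage II replicate 3 lay at 42.2, against 30.2 and 27.6 for replicates 1 and 2. Stage I replicate 1 lay there at 9.9, against -4.6 and -6.5 for replicates 2 and 3. In stage II against control, 8 of 8 oocyte markers, 6 of 7 granulosa markers, 5 of 6 theca and interstitial markers and 6 of 10 smooth muscle markers fell. Over the same arrays 5 of 6 macrophage markers and 2 of 8 epithelial markers rose, and 0 of 8 T and B cell markers passed the test in either direction. Of 6 genes known from hepatocytes 4 rose, with Apoa1, Fga, Fgb and Fgg among them, and the defining gene Alb differed by 0.04. Of 5 luteal markers 1 rose and 0 fell. Among the controls all 5 were highest in replicates 1 and 4. Ptgfr read 12.22 and 12.23 there against 10.60 to 11.42 in the other controls, and Hsd17b7 read 12.14 and 11.88 against 9.32 to 11.14. The summed log2 level of the macrophage markers ran from 12.51 to 12.78 in control, 12.51 to 13.24 in stage I and 12.96 to 13.2 in stage II, and that of the granulosa markers from 14.35 to 14.92, 14.56 to 14.97 and 13.28 to 14.25. The part of such shifts in the results on carriers was not tested, and in whole ovaries fewer cells of a type and less RNA per cell cannot be told apart.

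The comparison of stage II with control asked which carriers differed once ovaries had reached the later tumor stage. A small number of carriers rose steeply and a larger number shifted mildly in both directions. Slc16a6, a monocarboxylate carrier linked to ketone body export from liver cells, rose 32.7-fold. The amino acid carrier Slc38a4, the prostaglandin transporter Slco2a1, the peptide transporter Slc15a1 and the zinc and iron importer Slc39a14 rose between 5.38-fold and 7.05-fold. Slc25a33, which carries pyrimidine nucleotides into mitochondria, rose 3.38-fold, and the thiamine transporter Slc19a2 rose 2.01-fold. In all, 48 of 231 solute carrier genes passed an adjusted p of 0.05 (20.8%; limma, Benjamini-Hochberg over all genes), against 21% of all genes tested. Of these 30 rose (13%, against 9.81% of all genes) and 18 fell (7.79%, against 11.2% of all genes). The median log2 fold change was 0.018 over the carriers and -0.014 over all genes, and the median absolute change was 0.115 and 0.127. The arrays of both groups did not overlap for 49 carriers (21.2%, against 22% of all genes), 27 with stage II higher (11.7%, against 9.97%) and 22 with it lower (9.52%, against 12%). As a family the carriers were called about as often as the rest of the genes.

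Rises and falls differed in size. The 30 rises ran from 0.27 to 5.03 on the log2 scale, 23 of them below 1, while the 18 falls ran from -0.59 to -0.2. At least 2-fold rises were seen in 7 of 231 carriers and at least 2-fold falls in 0, against 244 and 30 of all 10949 genes. Rises of that size thus outnumbered falls over all genes as well. The 7 carriers came from 6 substrate classes, and only the class of peptide, vitamin and heme carriers held more than 1 of them. Counts by class given below stand beside 9.81% of all genes that rose and 11.2% that fell in stage II against control.

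**Figure D1:**
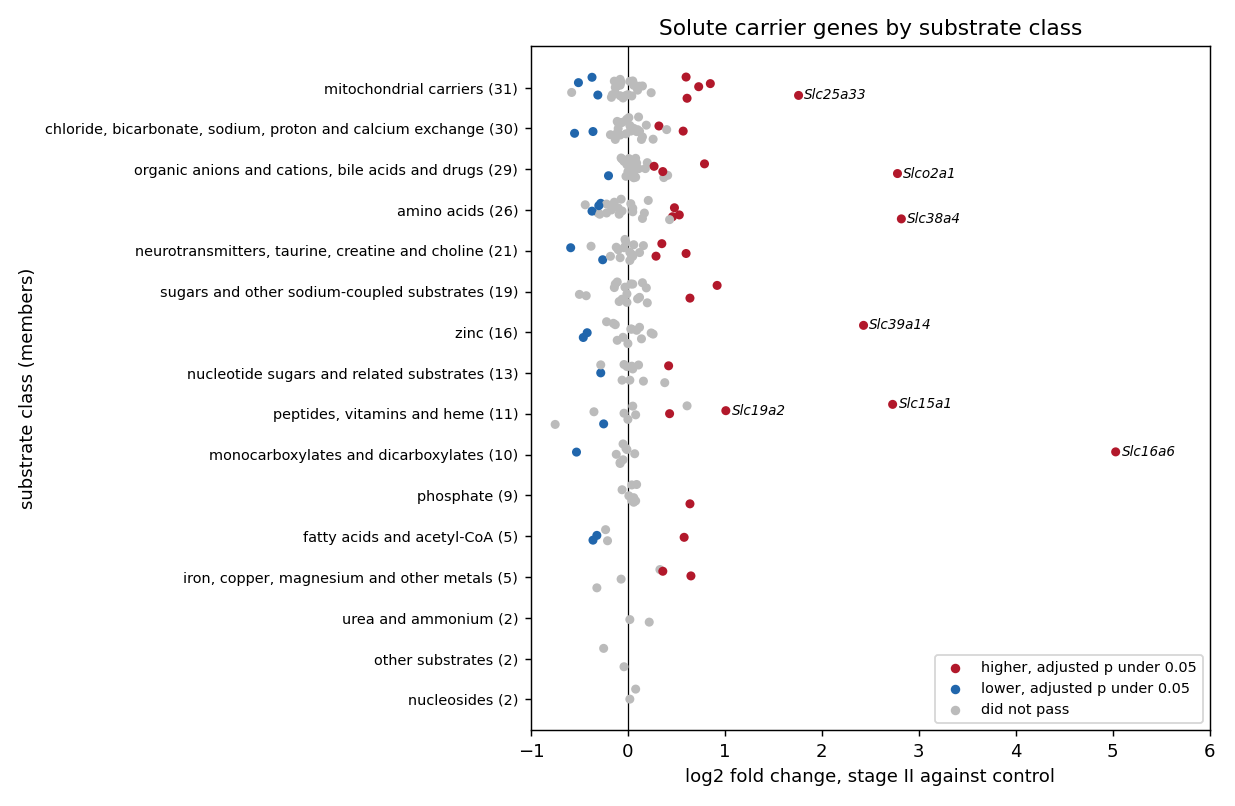
Log2 fold change in stage II against control (x axis) for each of the 231 solute carrier genes, 1 point a gene, in rows by substrate class with the number of genes in brackets. Red points rose and blue points fell at an adjusted p under 0.05 (limma), and the 7 genes named in the plot lie at 1.01 or higher while no blue point lies below -0.59.

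The DNA just before the annotated start of transcription is shown for 6 carriers. Slc15a1, Slc19a2, Slc25a33, Slc38a4 and Slco2a1 are the steep risers with an entry in the table of starts, and Slc38a2 is the neighbour of Slc38a4 that moved the other way. The table has no entry for Slc16a6, Slc39a14 and Slc38a1. Each line gives the 250 bases before the start, 5′ to 3′ on the gene's own strand, from RefSeq on assembly GRCm38.p6, and for Slc38a4, with 3 starts in the table, the outermost start was taken. Capitals mark matches on either strand to AGAACA (the core of the element that progesterone and glucocorticoid receptors bind), TATAAA (the TATA box), GGGCGG (the GC box) and CCAAT.
Slc15a1, chr14:121505255-121505504, minus strand: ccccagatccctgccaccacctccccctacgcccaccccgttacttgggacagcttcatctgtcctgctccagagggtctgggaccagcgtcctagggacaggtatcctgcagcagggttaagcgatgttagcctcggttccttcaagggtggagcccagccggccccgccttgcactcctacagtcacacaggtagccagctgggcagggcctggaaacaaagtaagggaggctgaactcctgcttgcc
Slc19a2, chr1:164248796-164249045, plus strand: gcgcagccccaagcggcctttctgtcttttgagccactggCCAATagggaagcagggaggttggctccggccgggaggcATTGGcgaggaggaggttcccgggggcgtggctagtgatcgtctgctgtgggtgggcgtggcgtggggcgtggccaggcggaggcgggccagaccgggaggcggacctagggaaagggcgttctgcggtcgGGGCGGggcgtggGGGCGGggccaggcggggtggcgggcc
Slc25a33, chr4:149774268-149774517, minus strand: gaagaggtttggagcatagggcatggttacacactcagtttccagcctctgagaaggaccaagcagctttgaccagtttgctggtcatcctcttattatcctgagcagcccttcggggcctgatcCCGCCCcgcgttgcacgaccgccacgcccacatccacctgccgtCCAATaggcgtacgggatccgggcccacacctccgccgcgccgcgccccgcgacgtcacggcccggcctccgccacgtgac
Slc38a4, chr15:97055957-97056206, minus strand: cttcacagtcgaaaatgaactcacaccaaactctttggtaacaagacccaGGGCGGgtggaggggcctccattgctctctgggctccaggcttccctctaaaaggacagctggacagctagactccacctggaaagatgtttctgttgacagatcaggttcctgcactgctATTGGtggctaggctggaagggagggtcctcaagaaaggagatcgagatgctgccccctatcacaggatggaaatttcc
Slco2a1, chr9:103008237-103008486, plus strand: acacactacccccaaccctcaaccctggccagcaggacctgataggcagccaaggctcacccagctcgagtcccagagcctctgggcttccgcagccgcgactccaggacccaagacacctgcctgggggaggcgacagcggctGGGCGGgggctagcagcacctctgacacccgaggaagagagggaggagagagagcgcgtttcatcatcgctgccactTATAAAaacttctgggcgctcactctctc
Slc38a2, chr15:96699729-96699978, minus strand: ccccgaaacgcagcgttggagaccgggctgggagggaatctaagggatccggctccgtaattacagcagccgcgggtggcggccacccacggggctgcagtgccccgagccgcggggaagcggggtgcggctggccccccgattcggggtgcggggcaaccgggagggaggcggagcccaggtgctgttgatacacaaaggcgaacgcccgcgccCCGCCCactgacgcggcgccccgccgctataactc
The TATAAA of Slco2a1 began at position -29, and the other 5 windows held no such match. None of the 6 windows held AGAACA. Slc19a2 had both GC boxes and CCAAT matches, Slc25a33 and Slc38a4 had 1 of each, and the window of Slc15a1 held no match to any of the 4 motifs. CpG pairs numbered 3 for Slc38a4, 7 for Slc15a1, 12 for Slco2a1, 23 for both Slc19a2 and Slc25a33 and 30 for Slc38a2, against a median of 6 over the 32851 windows of the table. Over all windows, which include every start of a gene in the table, 16.1% held AGAACA, 12.4% TATAAA, 32.7% GGGCGG and 33.8% CCAAT. Windows were found for 184 solute carrier genes, and only the outermost start of each was counted. The carrier counts that follow and the shares over all windows therefore rest on unlike sets of starts. AGAACA was in 2 of 22 windows of carriers that rose, in 1 of 14 that fell and in 20 of 148 that did not pass. GGGCGG was in 14 of 22, 11 of 14 and 74 of 148. A match is a string of letters and not a bound site, and a missing match says only that these letters are not in this window.

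Slc16a6 had the largest change of any solute carrier gene. Control arrays lay between 5.94 and 6.87 with a median of 6.43, the stage I arrays read 9.54, 7.74 and 7.94, and those of stage II 11.43, 11.25 and 11.81. The 3 groups did not overlap, stage I lay between the others, and stage I replicate 1 was the closest to stage II. The log2 fold change was 5.03 ± 0.33 (SE) in stage II against control (adjusted p = 1.2e-06, limma) and 3.09 ± 0.39 between the stages, or 8.52-fold (adjusted p = 0.00059, limma). Slc16a6 had 1 probe set. Of its 6 measured neighbours on chromosome 11, the nearest, Amz2 and Arsg, changed by 0.03 and 0.24 and did not pass. Rgs9, the third gene on one side, rose by 0.56 (adjusted p = 0.00036, limma), and the other 3 did not pass. Within its class of 10 monocarboxylate and dicarboxylate carriers 1 other gene passed, Slc16a9, a carrier for creatine and carnitine, which fell. Slc16a1, the widespread lactate carrier, which was looked up after its values were seen, changed by -0.08 (adjusted p = 0.63, limma).

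Slc38a4 encodes a sodium-coupled importer of small neutral amino acids and is imprinted in the mouse placenta. Its controls ran from 5.04 to 6.00 with a median of 5.75, stage I read 7.42, 6.36 and 6.18, and stage II read 8.70, 8.40 and 8.13. Again the groups did not overlap, although stage I replicate 3 came close to the highest control. The lowest controls, at 5.05 and 5.04, were replicates 1 and 4, which stood apart overall. The rise in stage II was 2.82 ± 0.29 (adjusted p = 4e-05, limma), and 2.55 without those replicates (adjusted p = 0.00019, limma). Its close relatives beside it on chromosome 15 did not rise. The next gene, Slc38a2, a carrier of the same type that cells use to take up amino acids under shortage, fell by 0.37 (adjusted p = 0.024, limma, and 0.1 without stage II replicate 3), and its further probe sets gave -0.31 and -0.07. Slc38a1, which feeds glutamine into cells, changed by -0.44 against control (adjusted p = 0.054, limma) and by -0.67 between the stages (adjusted p = 0.025, limma).

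Slco2a1 takes up prostaglandins for their breakdown. Its log2 level was between 8.96 and 9.51 in control (median 9.18), 10.30, 9.55 and 9.55 in stage I, and 11.73, 11.86 and 12.41 in stage II. All stage I arrays were above all controls, though stage I replicates 2 and 3 only narrowly. The rise in stage II was 2.78 ± 0.19 against control (adjusted p = 1.5e-06, limma) and 2.20 ± 0.22 against stage I (adjusted p = 0.00016, limma). A second probe set of the gene gave 3.07. Of 29 carriers of organic anions and cations, bile acids and drugs, 4 rose and 1 fell. The others that rose were Slc22a5 by 0.79, Slco3a1 by 0.36 and Slco1a6 by 0.27, of which the last pair was named after their values were seen. Slco1a6 was dim throughout, with group means of 3.52 in control, 3.65 in stage I and 3.79 in stage II.

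Slc15a1 is the proton-coupled transporter of dipeptides and tripeptides best known from the intestine. It was dim in control, from 3.72 to 4.00 with a median of 3.91. Stage I arrays read 5.08, 4.45 and 4.27 and stage II arrays 6.88, 7.80 and 5.13. Stage II replicate 3 barely exceeded stage I replicate 1, and the SD of stage II, 1.35, was the widest among the 7 steep risers. The rise was 2.73 ± 0.41 against control (adjusted p = 0.00073, limma). Between the stages it was 2.01 ± 0.48 (adjusted p = 0.019, limma), and that call was lost without stage I replicate 2 or 3 or stage II replicate 1 (adjusted p from 0.057 to 0.072). No background was measured on these arrays, and 59 solute carrier genes had every group mean under 5; for Slc15a1 the means of control and stage I were under 5 and that of stage II was 6.60. Its relative Slc15a2 changed by -0.75 with an SE of 0.46 (adjusted p = 0.29, limma).

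Slc39a14 imports zinc, and also iron and manganese, and is known for its induction in the inflamed liver. Controls lay between 7.90 and 8.26 (median 8.16), the stage I arrays read 8.94, 8.93 and 8.53, and those of stage II 10.85, 10.81 and 9.91. The groups did not overlap, and stage II replicate 3 was the lowest of its group. The rise was 2.43 ± 0.18 in stage II against control (adjusted p = 3e-06, limma) and 1.72 ± 0.21 between the stages (adjusted p = 0.00054, limma). A second, dimmer probe set gave 1.10.

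Among the 16 zinc carriers Slc39a14 was the only one that rose, and 2 fell. Slc30a2, which loads zinc into vesicles and milk, lay between 7.35 and 7.89 in control (median 7.62), at 8.21, 8.08 and 7.85 in stage I and at 7.21, 7.31 and 7.03 in stage II. Stage II was below all other arrays, and stage I reached above the controls in replicates 1 and 2. Its change was -0.46 ± 0.11 against control (adjusted p = 0.015, limma) and -0.86 ± 0.13 between the stages (adjusted p = 0.0022, limma). Without stage II replicate 3 the first of these was no longer called (adjusted p = 0.089, limma). Slc39a6, an importer known from estrogen-responsive tissue, fell by 0.42 (adjusted p = 0.037, limma), but its stage II arrays at 9.74, 9.93 and 9.49 overlapped the controls, which ran from 9.83 to 10.40. Its second probe set gave -0.19. The call was lost without any of 6 single arrays, with the highest adjusted p, 0.21, without stage II replicate 3.

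Metallothioneins, the small proteins that bind zinc in the cytosol, were high in the same arrays. Of 4 genes of zinc binding and zinc response 3 rose, with a median of 1.43 over the 4. Mt1 rose by 1.53 ± 0.17 (adjusted p = 8.3e-05, limma), Mt2 by 1.86 ± 0.20 (adjusted p = 4.4e-05, limma) and Mt3 by 1.34 ± 0.20 (adjusted p = 0.00071, limma). Mt2 read between 11.51 and 12.21 in control, 13.37, 12.66 and 12.38 in stage I and 13.73, 13.73 and 13.78 in stage II, with no overlap between groups. Mtf1, the zinc-sensing factor that switches these genes on, differed by -0.03 (adjusted p = 0.80, limma).

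**Figure D2:**
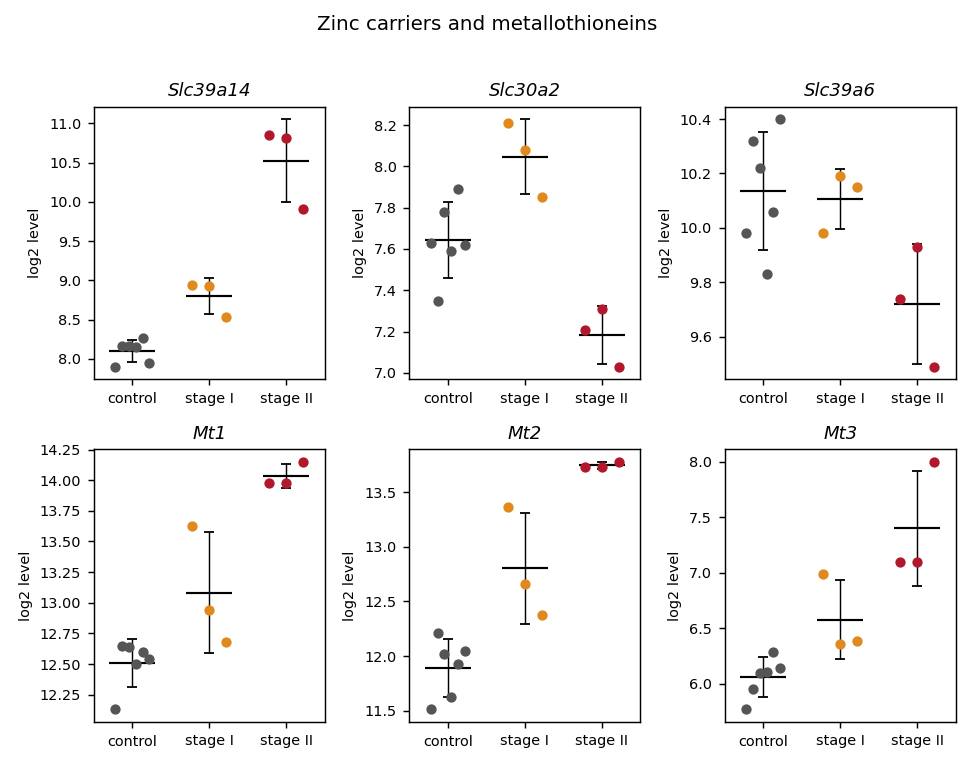
Log2 level (y axis) of 3 zinc carriers and 3 metallothioneins in the 12 arrays, with 1 point an array, the line at the group mean and the error bar at 1 SD (control n = 6, stage I n = 3, stage II n = 3). Slc39a14, Mt1, Mt2 and Mt3 step up from control to stage I to stage II, while Slc30a2 lies lowest in stage II.

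Slc25a33 supplies mitochondria with pyrimidine nucleotides. It read 8.68 to 9.05 in control (median 8.81), 9.90, 9.38 and 9.36 in stage I and 10.58, 10.71 and 10.51 in stage II. Each group was tight and clear of the next. The rise was 1.76 ± 0.13 in stage II (adjusted p = 2.2e-06, limma), and 1.05 ± 0.15 between the stages (adjusted p = 0.0012, limma). Slc25a36, which carries the same class of substrates, fell by 0.37 (adjusted p = 0.0089, limma, and 0.056 without stage II replicate 3), with stage II below all controls. Its second probe set gave -0.17, with overlap.

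The mitochondrial family was the largest class, with 31 genes, of which 5 rose and 3 fell. By the same test 9.81% of all genes rose and 11.2% fell. Slc25a30, a carrier of kidney mitochondria, ran from 10.80 to 11.55 in control (median 11.04) and read 12.03, 11.77 and 12.10 in stage II, a rise of 0.85 ± 0.17 (adjusted p = 0.0038, limma). A pair of further probe sets of that gene gave 0.81 and 1.11, and the fourth, at a level near 4, gave 0.07. Slc25a25, an exchanger of ATP-magnesium for phosphate that calcium activates, rose by 0.73 (adjusted p = 0.0088, limma), and this was lost without stage II replicate 3 (adjusted p = 0.052, limma). Slc25a42, which brings coenzyme A into mitochondria, fell by 0.51 ± 0.09 (adjusted p = 0.003, limma), and Slc25a51, the carrier of NAD, fell by 0.31 (adjusted p = 0.016, limma, and 0.069 or 0.081 without stage II replicate 1 or 3). The adenine nucleotide carriers Slc25a4 and Slc25a5 and the phosphate carrier Slc25a3 were among the 5 solute carrier genes with the highest mean level, and none of them passed the test in stage II against control.

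Slc19a2 takes up thiamine. Its controls ran from 9.25 to 9.58 (median 9.47), stage I read 9.56, 9.46 and 9.79 and stage II read 10.30, 10.12 and 10.89. It was the only steep riser whose stage I arrays overlapped the controls. The rise was 1.01 ± 0.15 in stage II (adjusted p = 0.00057, limma), a second probe set gave 1.44, and the related folate carrier Slc19a1, named after its values were seen, fell by 0.25 (adjusted p = 0.031, limma).

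**Figure D3:**
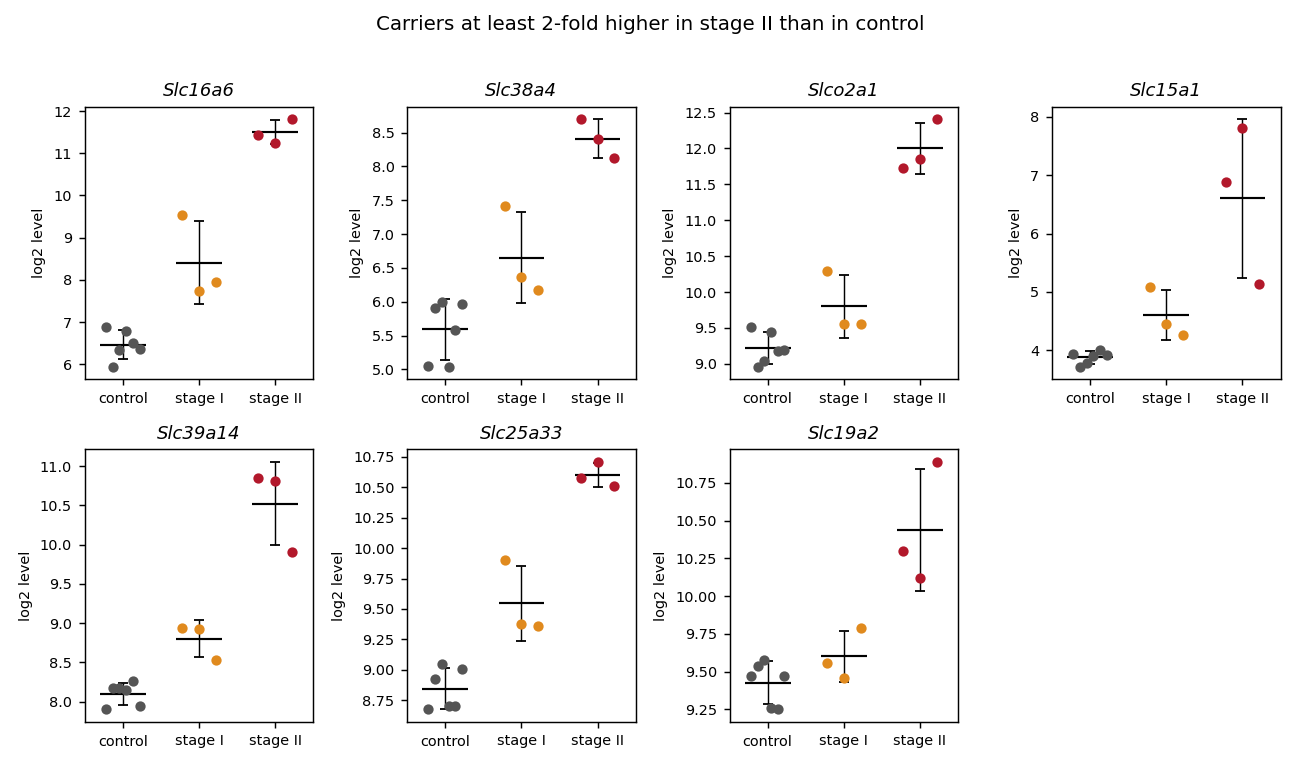
Log2 level (y axis) of the 7 solute carrier genes at least 2-fold higher in stage II than in control, with 1 point an array, the line at the group mean and the error bar at 1 SD (control n = 6, stage I n = 3, stage II n = 3). In all 7 panels every stage II array lies above every other array, and in 6 of 7 every stage I array lies above every control.

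Smaller rises came from many substrate classes. Slc37a4, which carries glucose 6-phosphate into the endoplasmic reticulum, rose from between 7.64 and 7.90 in control (median 7.72) to 8.68, 8.48 and 8.82 in stage II. Its stage I arrays, at 7.79, 7.67 and 7.69, lay among the controls. The rise of 0.92 ± 0.08 had the smallest adjusted p outside the steep risers (6.7e-06, limma). Slc22a5, the carnitine importer, rose by 0.79 ± 0.14 (adjusted p = 0.0021, limma), while Slc22a4, its relative near it on chromosome 11, stayed at a low level and differed by 0.06. The copper carrier Slc31a2 rose by 0.65 (adjusted p = 0.00078, limma). Slc45a3, a carrier known from prostate, rose by 0.64 (adjusted p = 0.025, limma), and its call was lost without any 1 of the 3 stage II arrays (adjusted p from 0.062 to 0.082). Slc17a1, a urate and phosphate carrier, rose by 0.64 (adjusted p = 0.0023, limma), but it was dim. Its group means were 4.17 in control, 4.21 in stage I and 4.81 in stage II, and background was not measured. The neighbours of Slc17a1 on chromosome 13, Slc17a3 and Slc17a2, each differed by 0.06.

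Further rises were seen in Slc33a1, which moves acetyl-CoA into the endoplasmic reticulum, by 0.58, in the choline carrier family member Slc44a2 by 0.60 and in the potassium-chloride cotransporter Slc12a4 by 0.57. The latter was precise, with controls from 7.98 to 8.14, stage I from 7.94 to 8.04, and stage II at 8.47, 8.67 and 8.73 (adjusted p = 9.4e-05, limma). Slc3a2, the heavy chain that brings several amino acid exchangers to the plasma membrane, was among the 5 genes with the highest mean level. It ran from 11.40 to 11.67 in control and read 12.05, 12.12 and 11.77 in stage II, a rise of 0.46 ± 0.08 (adjusted p = 0.0023, limma). Of the light chains that pair with it, those measured here did not pass, with Slc7a5 at 0.21, Slc7a8 at 0.43, Slc7a7 at -0.17, Slc7a10 at -0.29 and Slc7a11 at 0.05. These light chains were looked up after their values were seen.

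The carriers that fell were mild and mostly flat in stage I. Slc6a15, a neutral amino acid transporter of neurons, had the lowest change, -0.59 ± 0.16 (adjusted p = 0.02, limma). Its controls ran from 7.59 to 8.13 (median 7.95), stage I was scattered at 8.19, 7.85 and 7.34, and stage II read 7.35, 7.33 and 7.25. Slc24a3, an exchanger of sodium for calcium and potassium, read 7.56 to 7.86 in control (median 7.71), 7.57, 7.88 and 7.76 in stage I and 7.20, 7.32 and 6.99 in stage II. Only stage II was clear of the controls, with a change of -0.55 ± 0.10 (adjusted p = 0.0022, limma) and of -0.56 ± 0.11 between the stages (adjusted p = 0.0086, limma). Slc16a9 read 8.35 to 8.84 in control (median 8.42) and 7.99, 7.97 and 7.92 in stage II, a change of -0.53 ± 0.10 (adjusted p = 0.0035, limma), and its second probe set gave -0.57. Of 5 fatty acid and acetyl-CoA carriers the fatty acid transporters Slc27a2 and Slc27a1 fell, by 0.36 and 0.32 (adjusted p = 0.02 and 0.041, limma). The call of Slc27a1 was lost without any of 9 single arrays (adjusted p from 0.054 to 0.14). Among the 18 genes that fell, the opposite-strand gene Slc7a6os included, stage II replicate 3 was the lowest stage II array in 12. Without that array 28 carriers were called in place of 48, 23 of them higher and 5 lower, and Slc6a15 (adjusted p = 0.087), Slc25a36 (0.056), Slc38a2 (0.1), Slc27a2 (0.12) and the sodium bicarbonate carrier Slc4a8 (0.089) were among the falls no longer called by limma.

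**Figure D4:**
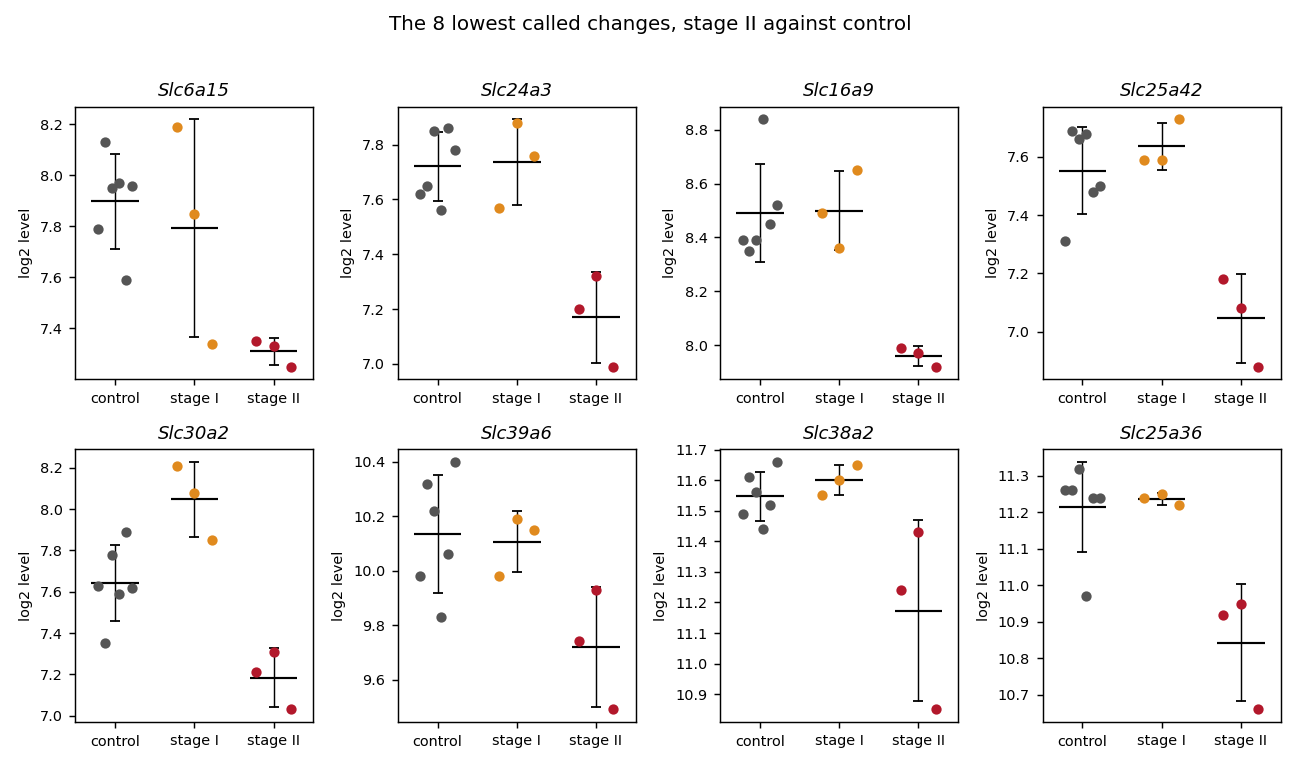
Log2 level (y axis, not starting at 0) of the 8 solute carrier genes with the lowest called changes in stage II against control, with 1 point an array, the line at the group mean and the error bar at 1 SD (control n = 6, stage I n = 3, stage II n = 3). The stage II mean is the lowest in every panel, with changes from -0.59 to -0.37 against control. The stage I mean lies near that of control except for Slc30a2, where it is higher.

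Stage I against control asked which carriers differed already at the earlier tumor stage. A single carrier passed, Slc16a6, out of 231 (0.433%, against 0.192% of all genes, limma). It rose by 1.94 ± 0.33, or 3.84-fold (adjusted p = 0.042, limma). The call was near its limit, since it was lost without any 1 of the 6 controls or of the 3 stage II arrays, with adjusted p up to 0.24 over all alternatives, and it was kept without any 1 of the stage I arrays. The lowest log2 change over the alternatives, 1.37, came without stage I replicate 1 (adjusted p = 0.025, limma). The other steep risers had changes from 0.18 to 1.06 and did not pass, with Slc25a33 nearest at 0.70 ± 0.13 (adjusted p = 0.058, limma). Slc38a4 gave 1.06 ± 0.29 (adjusted p = 0.38, limma).

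At an unadjusted p under 0.05, 15 carriers were higher and 3 lower in stage I (7.79% in all, against 6.38% of all genes, limma). The arrays of both groups did not overlap for 11 carriers (4.76%, against 3.68% of all genes). Those above all controls were Slc11a2, Slc15a1, Slc16a6, Slc25a29, Slc25a33, Slc38a4, Slc39a14 and Slco2a1 (3.46%, against 2.23%). Those below all controls were Slc12a8, the myo-inositol carrier Slc5a3 and the taurine carrier Slc6a6 (1.3%, against 1.45%). Slc5a3 was dim, with means of 4.16 in control and 3.98 in stage I. Its lowest control and highest stage I array both round to 4.03. For Slc25a29 the highest control and the lowest stage I array both round to 6.85. Slc12a8 had the largest fall in size and did not pass, at -1.59 (adjusted p = 0.62, limma). Its controls were 9.22, 6.87, 7.16, 8.98, 7.77 and 6.91, with replicates 1 and 4 the highest, and stage I read 5.66, 6.34 and 6.69. Without those controls the change was -0.95 (adjusted p = 0.76, limma). Slc5a4b and Slc15a2 were also large in size, at -0.75 and 0.74, and did not pass.

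Stage II against stage I asked what differed between the tumor stages at the same genotype. Of 231 carriers 34 passed (14.7%, against 12.5% of all genes, limma), 21 higher (9.09%, against 6.54%) and 13 lower (5.63%, against 5.97%). All 7 steep risers were among them, 6 of the calls at least 2-fold. Of the 34, 20 were also higher and 10 also lower than in control, and these comparisons share the stage II arrays. The arrays of the stages did not overlap for 71 carriers (30.7%, against 31.6% of all genes), 39 with stage II higher (16.9%, against 14.5%) and 32 with it lower (13.9%, against 17.1%). The median log2 fold change was 0.011 over the carriers and -0.008 over all genes.

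Between the stages alone 4 carriers were called: Slc38a1, Slc25a38, Slc11a2 and Slc35e3. Slc11a2, an importer of ferrous iron, was slightly higher in stage I (7.80, 7.98 and 7.92) than in control (7.65 to 7.79) or stage II (7.72, 7.60 and 7.64), and differed by -0.25 ± 0.06 between the stages (adjusted p = 0.029, limma). A second probe set of Slc11a2 did not show the higher level in stage I: it gave -0.08 in stage I and -0.31 in stage II against control, with stage II below all controls. Slc25a38, the mitochondrial glycine carrier for heme synthesis, differed by -0.39 ± 0.10 (adjusted p = 0.026, limma). Slc35e3, of the nucleotide sugar family, differed by 0.65 ± 0.17 (adjusted p = 0.031, limma), with 8.57, 8.60 and 8.70 in stage I against 9.35, 9.10 and 9.37 in stage II, and controls 1 and 4, both at 9.28, among the stage II values. Without controls 1 and 4, Slc35e3 and Slc38a1 were also called in stage II against control, at 0.56 and -0.59 (adjusted p = 0.0012 and 0.0073, limma). Each of the 4 calls between the stages was lost without some single arrays of either stage, 4 arrays for Slc38a1, Slc25a38 and Slc11a2 and 5 for Slc35e3, with adjusted p up to 0.11. Slc12a8 gave 1.72 between the stages and did not pass (adjusted p = 0.11, limma); without controls 1 and 4, which enter only through the shared spread, its adjusted p was 0.03.

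**Figure D5:**
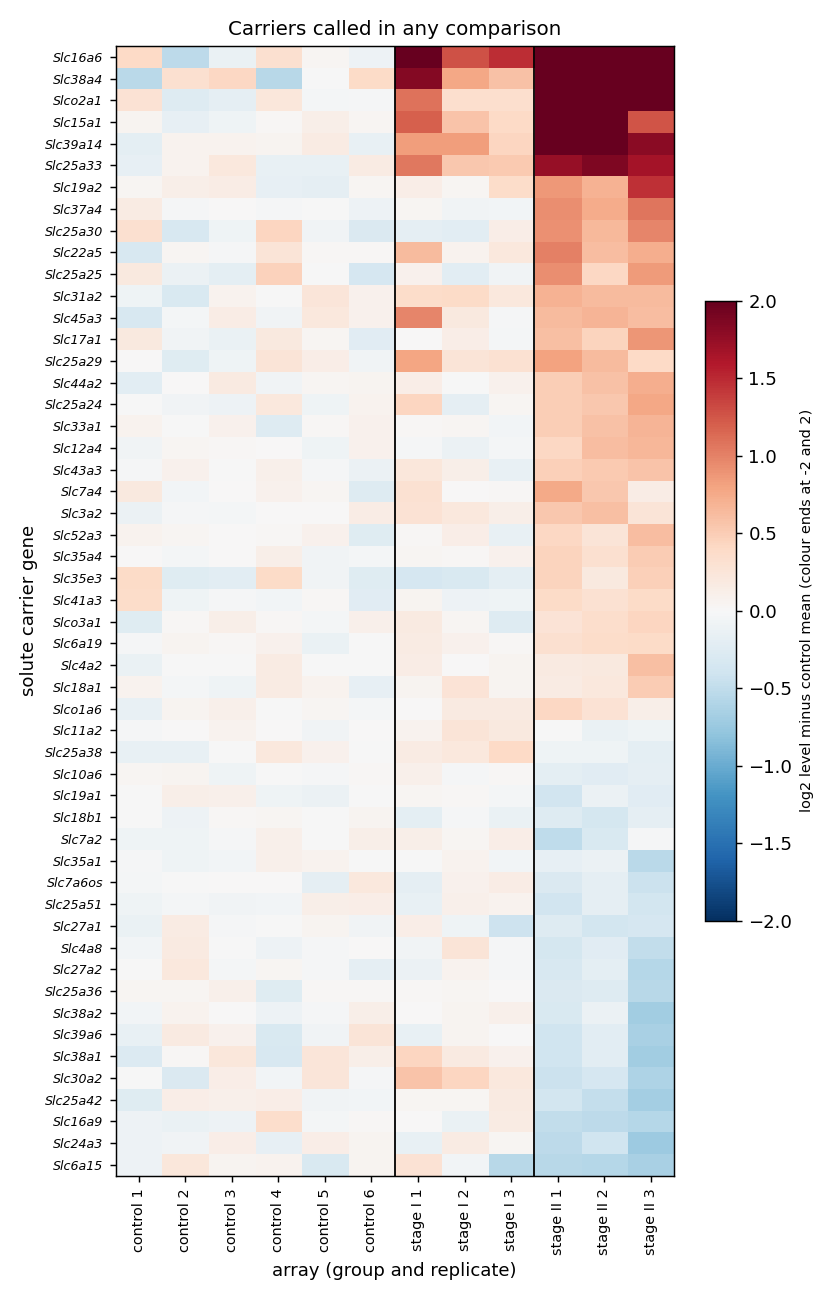
Log2 level minus the control mean (colour, ending at -2 and 2) of the 52 solute carrier genes called in any comparison (rows, ordered by the change in stage II against control) in the 12 arrays (columns). The upper rows are red in stage II, and the top genes are paler red in stage I, with stage I replicate 1 the strongest in 6 of 7. The lower rows are pale blue in stage II and mostly near control in stage I. Stage I replicate 3 is also low for Slc6a15 and Slc27a1, at 7.34 and 7.20 against control means of 7.90 and 7.61.

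Other transport genes from lists set by function showed counts as follows in stage II against control, where 9.81% of all genes rose and 11.2% fell. Of 21 ABC transporters, the pumps driven by ATP, 7 rose and 2 fell, with a median of 0.06. The largest rises were Abcc3, an exporter of conjugated organic anions, by 1.36 ± 0.17 (adjusted p = 0.00016, limma) and Abcb6, a porphyrin transporter, by 0.55, and the cholesterol exporter Abca1 fell by 0.51. Of 7 sodium pump subunits, which keep up the gradient that many carriers use, 2 rose and 2 fell: Atp1b1 rose by 0.59 and Fxyd5 by 0.23, and Fxyd1 and Fxyd6 fell by 0.56 and 0.54. Emb, a chaperone that brings monocarboxylate carriers to the membrane, fell by 0.82 ± 0.26 (adjusted p = 0.041, limma), and 2 of 6 genes of that list fell in all. Aqp11 rose by 0.82 and was the only 1 of 9 aquaporins that passed. Of 11 iron handling genes 3 rose and 1 fell. Lcn2, which binds iron-loaded siderophores, rose by 8.05, and Cp, the ferroxidase ceruloplasmin, by 3.17. The gene that fell was Aco1, with controls from 9.69 to 9.96 and stage II at 9.55, 9.45 and 9.15. The iron exporter Slc40a1, which is not in that list, gave -0.32 and did not pass (adjusted p = 0.078, limma). Aco1 and Slc40a1 were named after their values were seen. Of 9 genes of the response to amino acid shortage, Vldlr rose by 0.45 and Nupr1 fell by 1.26.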

How the data were processed

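The authors deposited log2 values, 1 per probe set and array; how they were summarised and normalized is not given in the sources used here. Array medians lay between 7.09 and 7.15, no pair of arrays was identical, and the number of arrays limits the precision. The labels' protocols name biotin labelling and also Cy3 and Cy5, and the values hold 1 channel. The platform annotation gave 1 symbol for 14674 probe sets, several for 427 and none for 1275, and the last 2 kinds were left out. Of the 1-symbol probe sets 14632 matched the RefSeq gene table (GRCm38.p6).

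A model with a mean for each group was fitted to all 12 arrays and 10949 genes with limma 3.58.1 in R 4.3.3 (9 residual and 3.13 prior degrees of freedom). P-values were adjusted by Benjamini-Hochberg over all genes, and "rose", "fell" and "called" mean an adjusted p under 0.05. A fold change is the difference of 2 group means on the log2 scale, given ± the model's standard error (SE). The script was tested on simulated data.

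The genes were taken by symbol, and the choice of solute carriers as a subject, the substrate classes and the lists were made with earlier results of these data known. Named genes were, per comparison, the 12 highest and 12 lowest called changes (with under 5 calls, also the 5 largest changes), per class the 2 largest changes, the 5 highest levels, and up to 3 called genes a list; other names were chosen after their values were seen. Alternatives were array weights, quantile normalization, equal array medians, averaging the probe sets of a gene, dropping the dimmest 25 percent of genes, fitting only the groups compared, a robust trended prior, a replicate block, leaving out single arrays or controls 1 and 4, and requiring a fold of at least 1.5.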

Additional observations from a re-analysis of the deposited data

Results flagged for a closer look

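In 4 of 51 named solute carrier genes 1 control array lay far from the other controls by Dixon's test, which chance gives in about 1 of 20 groups. For Slc14a1, a urea carrier, control replicate 5 read 5.57 and the next control 3.73. Control replicate 4 stood apart in the other 3 genes: it read 8.84 for Slc16a9 against a next value of 8.52, 10.97 for Slc25a36 against 11.24, and 9.0 for Slc33a1 against 9.24.

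In 3 genes the stages lay on opposite sides of control and differed from each other. Slc30a2 was 0.41 above control in stage I and 0.46 below it in stage II, a difference of -0.86 (adjusted p = 0.0022, limma). Slc38a1 was 0.23 above and 0.44 below, a difference of -0.67 (adjusted p = 0.025, limma). Slc35e3 was at -0.27 in stage I and 0.38 in stage II, a difference of 0.65 (adjusted p = 0.031, limma). For Slc38a1 and Slc35e3 the stage I side rested on controls 1 and 4, without which it was 0.08 and -0.09, while for Slc30a2 it was 0.39. The differences between the stages for Slc38a1 and Slc35e3 were not called without some single arrays, with adjusted p up to 0.11.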

How the results depend on the processing

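In stage I against control the count of called carriers, 1, became 2 after quantile normalization and after array medians were set equal. It became 0 with a trended and robust prior, with the replicate block, without controls 1 and 4 together and with only the 2 groups compared, and was 0 to 1 with single arrays left out. Without stage II replicate 3 the 1 carrier called was Slc39a14, at 0.70 (adjusted p = 0.024, limma), and Slc16a6 was not called (adjusted p = 0.058, limma). In stage II against control the count of 48 became 29 with the replicate block and 18 with a fold of at least 1.5, rose to 60 with array weights and 55 without controls 1 and 4, and was 28 to 52 with single arrays left out, lowest without stage II replicate 3. Between the stages the count of 34 became 19 with the replicate block, 18 with only the 2 groups compared, where 6 arrays give the spread, and 16 with a fold of at least 1.5, and rose to 50 with array weights and 42 without controls 1 and 4. It was 19 to 39 with single arrays left out, at 19 without stage I replicate 2 or 3 and 21 without stage II replicate 1 or 3. Other than by fewer samples or a stricter rule, the cause was not tested. There were 21 settings, and of the 65 calls of the 51 named genes 32 were kept under every setting in which the gene was fitted. These were 20 of 34 in stage II against control, 12 of 30 between the stages and 0 of 1 in stage I against control. Slc15a1 and Slc17a1 were dropped with the dimmest 25 percent of genes, so that setting did not test their calls. No change reversed its sign while called. Same-numbered samples are not paired by the labels, and the correlation of their deviations exceeded 0.1 in 3 of 9 pairs, so the block shares only a number. Groups of 3 and unmeasured background limit what dim genes can show.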
